A study of Mus musculus with 15 samples.

Results

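Basal cell genes of the mouse epididymis are described here in 15 RNA libraries of the whole organ. The members are 9 genes: the transcription factor gene Trp63, the keratin genes Krt5, Krt14, Krt15 and Krt17, the integrin genes Itga6, Itgb4 and Itgb6, and the neurotrophin receptor gene Ngfr. They were taken as the rows of the count table whose NCBI Gene ID carries one of these mouse symbols, 9 of 41591 rows, and all 9 had enough counts to be tested. The study compared mice with different numbers of intact copies of Plag1, a gene for a zinc finger transcription factor: 5 wild-type mice (WT), 5 mice labelled Plag1 -/+ (HET) and 5 labelled Plag1 -/- (KO). All 15 mice were 7 weeks old, carried the strain label Brown Swiss, and gave 1 library each; how the Plag1 allele was made is not given in the sources used here. The tissue was rinsed of sperm before RNA was extracted, and RNA of all cell types of the organ is pooled in each library, so fewer basal cells and less RNA per basal cell cannot be told apart.

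The epididymal duct is lined by a pseudostratified epithelium in which tall principal cells face the lumen and basal cells sit on the basement membrane. Basal cells of many epithelia are recognised by p63, the product of Trp63, by a filament network of the keratin pair encoded by Krt5 and Krt14, and by hemidesmosomes, in which the integrin pair encoded by Itga6 and Itgb4 grips laminin in the basement membrane. p63 is known to control transcription of Krt5 and Krt14. Itgb6 encodes the partner of the alpha-v integrin chain in a receptor that releases active TGF-beta, and Ngfr encodes p75, a low-affinity receptor of neurotrophins that also marks glia of nerves.

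Libraries held between 20304440 and 41957608 counts, given here as counts per 1000000 counts of the library (CPM), with library sizes scaled by TMM factors, and, where levels of different genes are compared, as CPM per kilobase of exon (RPKM). Plag1 itself ranged between 11.9 and 14.0 CPM among WT libraries, 8.11 and 11.8 CPM among HET libraries and 6.99 and 9.36 CPM among KO libraries. It was lower in KO than in WT by a log2 fold change of -0.61 ± 0.1 (SE; edgeR adjusted p = 0.00493). 1 KO library, KO-738, lay at -17.8 on the first principal component of all tested genes, within the WT range of -19.9 to -11.0, while the other 4 KO libraries lay at 26.8 to 48.5. Another, KO-739, held skeletal muscle RNA: 6 muscle genes summed to 3952 CPM there and to at most 84.7 CPM in every other library. Markers of other cells also moved with genotype: endothelial genes summed to 122 to 148 CPM in WT and 180.03 to 245 CPM in KO, with 6 of 8 higher in KO, and 6 of 7 fibroblast and 5 of 6 macrophage genes were higher in KO (edgeR adjusted p under 0.05). Germ cell genes, 4 of 7 higher in KO with a median log2 fold change of 1.70, summed to 21.5 to 52.7 CPM in WT and 22.7 to 147 CPM in KO. Fat cell genes, 0 of 5 called but 5 of 5 at an unadjusted p under 0.05 with a median of 2.19, summed to 6.93 to 28.99 CPM in WT and 7.11 to 162 CPM in KO. Their part in the results below was not tested.

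Per kilobase of exon, Krt5, Krt15 and Krt14 led in each genotype, while the keratin gene Krt17 was among the 3 lowest. In WT the mean RPKM ran in the order Krt5 (63.5 ± 5.89, SD, n = 5), Krt15 (54.9 ± 7.32), Krt14 (33.2 ± 5.25), Trp63 (8.77 ± 0.723), Itga6 (5.93 ± 0.78), Itgb4 (3.02 ± 0.375), Ngfr (0.806 ± 0.15), Krt17 (0.753 ± 0.341) and Itgb6 (0.688 ± 0.0955). The ranges of Krt5 and Krt15 overlapped, at 57.9 to 72.6 and 45.3 to 61.1 RPKM, and the 3 lowest genes overlapped one another, whereas every other pair of neighbours in that order was apart in the 5 WT libraries. The first 6 places were the same in HET and KO, and in KO the ranges of Krt15 and Krt14 overlapped as well. Genes of stratified skin differed in level. Krt1, Krt2, Krt6a, Krt6b, Krt16 and Krt77 each had a mean of at most 0.0684 CPM over the 15 libraries, and the cornified envelope gene Flg a mean of 0.0139 CPM. The suprabasal keratin gene Krt10 stood at 12.35 CPM, Sbsn at 2.89 CPM and the cornified envelope gene Lor at 1.08 CPM. Keratins of the luminal epithelium were present, with Krt18 at a mean of 432 CPM and Krt8 at 336 CPM.

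**Figure D1:**
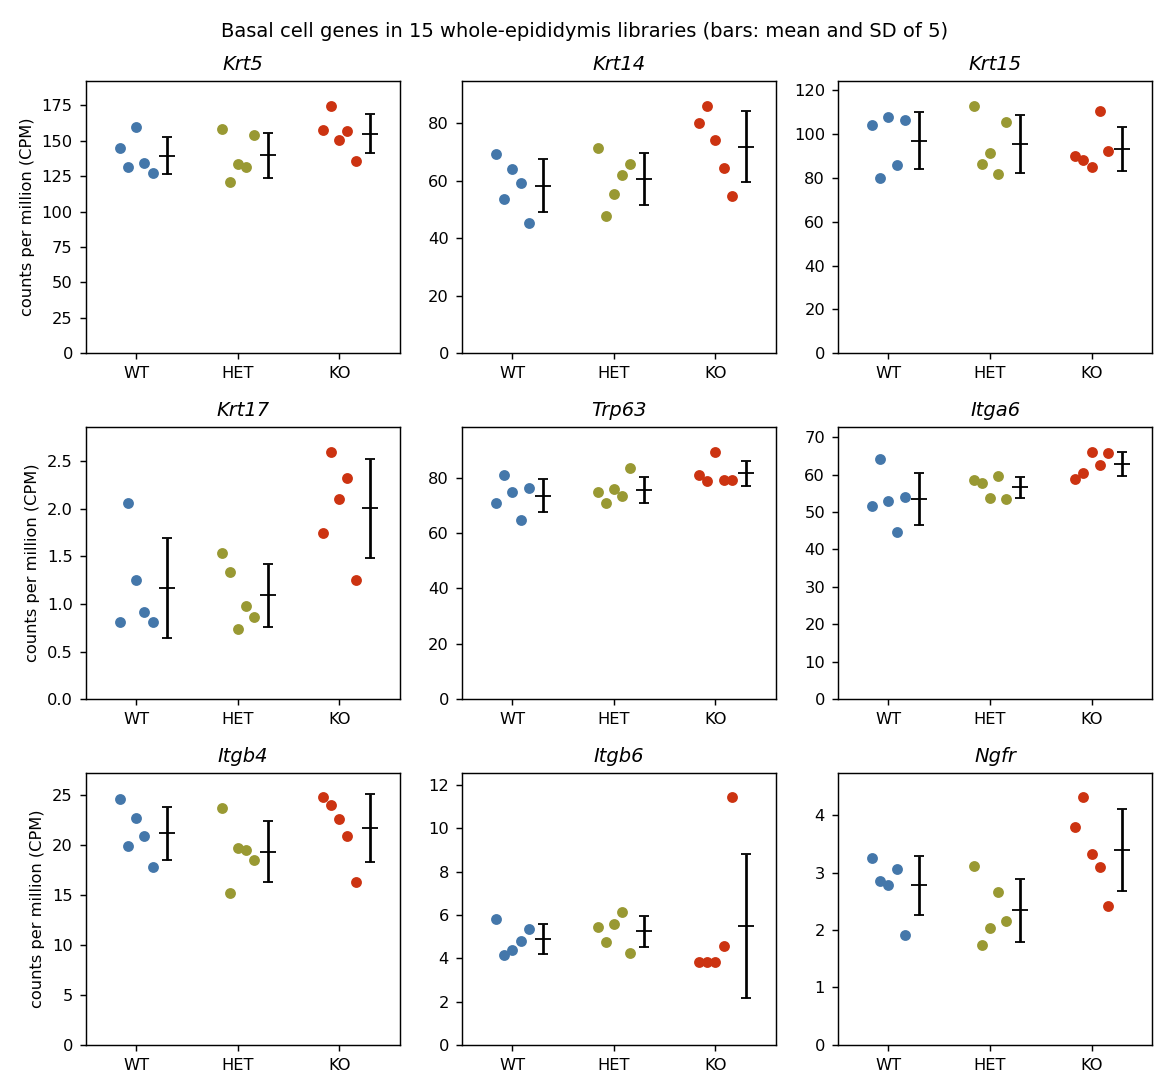
Level of each basal cell gene in CPM (y axis, from 0) in the 5 WT, 5 HET and 5 KO libraries (points), with the mean and SD of each genotype (black bars). The genotypes overlap in each of the 9 genes, and 1 KO library stands at 11.43 CPM for Itgb6 while the other 4 lie at 3.83 to 4.57 CPM.

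None of the 9 basal cell genes passed the test between genotypes, and none had KO libraries that lay wholly outside the WT or the HET range. In KO against WT, edgeR's quasi-likelihood test called 0 of 9 at an adjusted p under 0.05, where it called 6% of all 19388 genes tested, and 4 of 9 had an unadjusted p under 0.05, against 23.6% of all genes. The values leaned upward: 8 of 9 log2 fold changes were above 0, with a median of 0.17. The median of all genes was -0.01 and 46.8% of all genes lay above 0. Itgb6 was above 0 only through KO-739, the library with skeletal muscle RNA, and was -0.29 without it. Itgb4, at 0.04, was below 0 in some fits. In HET against WT, 0 of 9 were called (0% of all genes) and 0 of 9 had an unadjusted p under 0.05 (4.4% of all genes), with a median of 0.0. In KO against HET, 0 of 9 were called (1.96% of all genes) and 2 of 9 had an unadjusted p under 0.05 (20.8% of all genes), with a median of 0.15. The comparisons with KO share the KO libraries, so their leanings are not separate evidence. DESeq2 called 1 of 9 in KO against WT (Itga6, adjusted p = 0.0316) and 1 of 9 in KO against HET (Krt17, adjusted p = 0.0431), where it called 9.95% and 6.41% of all genes, and 0 of 9 in HET against WT.

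**Figure D2:**
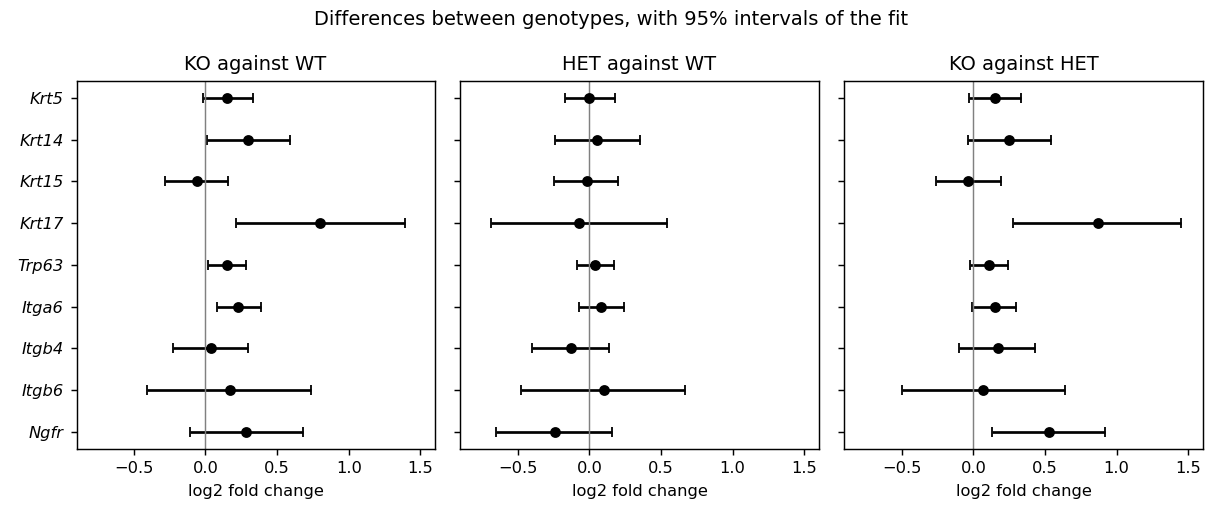
Log2 fold change of each basal cell gene (points) with the 95% interval of the edgeR fit (bars), for KO against WT, HET against WT and KO against HET. In KO against WT, 8 of 9 points lie above 0, and the widest intervals belong to the low genes Krt17 and Itgb6. Without KO-739 the Itgb6 value was -0.29.

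Trp63 encodes p63, the transcription factor on which basal cells of stratified and pseudostratified epithelia depend (GRCm38.p6 chromosome 16, 25683763 to 25892088). It stood at 71, 81, 74.7, 64.8 and 76.2 CPM in the 5 WT libraries, 75, 71, 76, 73.3 and 83.4 CPM in the 5 HET libraries and 81.2, 78.8, 89.5, 79.4 and 79.2 CPM in the 5 KO libraries. The KO libraries sat in the upper part of the WT range, and 2 of them, KO-694 and KO-696, lay above the highest WT library. The log2 fold change in KO against WT was 0.15 ± 0.06 (SE), with an edgeR adjusted p of 0.143 and a 95% interval of 1.02- to 1.21-fold. The value for HET against WT was 0.04 ± 0.06 (SE), with an edgeR adjusted p of 0.999 and a 95% interval of 0.942- to 1.13-fold.

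Krt5 encodes the type II keratin of the basal cell filament pair (chromosome 15, 101707069 to 101712905, minus strand). A p53-family half-site, the kind of 10-base sequence that p63 binds, was searched in the 250 bases before the transcription start because p63 and Krt5 are both members; the motif reads the same on both strands. Promoter sequences for 4 of the 9 members, 5 starts in all, were found in the RefSeq promoter table of GRCm38.p6. The Krt14 entry, chr11:100206031-100206280, and an Itgb6 entry, chr2:60673694-60673943, lie inside their genes. The bases upstream of the full Krt14 gene were therefore not searched. Of the 5 entries 1 held the motif, as did 7.13% of all 32851 entries. It lies 95 bases before the Krt5 start and is in capitals below, at chr15:101712906-101713155 on the minus strand; the Ngfr promoter, at chr11:95587699-95587948 on the minus strand, has none and is shown for comparison:
Krt5: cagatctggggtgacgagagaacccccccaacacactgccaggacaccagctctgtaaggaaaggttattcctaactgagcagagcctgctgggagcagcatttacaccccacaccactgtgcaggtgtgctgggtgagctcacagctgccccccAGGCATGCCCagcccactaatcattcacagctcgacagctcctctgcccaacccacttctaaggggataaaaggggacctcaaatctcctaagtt
Ngfr: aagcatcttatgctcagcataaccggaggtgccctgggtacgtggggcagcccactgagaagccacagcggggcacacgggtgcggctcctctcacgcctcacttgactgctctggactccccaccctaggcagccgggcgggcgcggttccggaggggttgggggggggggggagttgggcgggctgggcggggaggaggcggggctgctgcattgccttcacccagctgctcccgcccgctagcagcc
A PLAG1 consensus motif (core and cluster with 7 bases between them, either strand) was found in 0 of the 5 members' entries and in 8.18% of all entries. Such matches describe the letters in these windows only, and binding was not measured.

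Krt5 stood at 145, 132, 159.6, 134 and 127 CPM in the 5 WT libraries, 158, 121, 134, 132 and 154 CPM in the 5 HET libraries and 157, 175, 151, 157 and 136 CPM in the 5 KO libraries. KO-695 was above every WT library, and the other 4 KO libraries lay within the WT range. The log2 fold change in KO against WT was 0.15 ± 0.08 (SE), with an edgeR adjusted p of 0.284 and a 95% interval of 0.984- to 1.26-fold. The HET libraries spread around the same mean as WT, 139.8 ± 15.8 CPM (SD, n = 5) against 139 ± 12.9 CPM (SD, n = 5).

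Krt14 encodes the type I partner of keratin 5 (chromosome 11, 100203162 to 100207510, minus strand). It stood at 69.2, 53.6, 64.1, 59.2 and 45.4 CPM in the 5 WT libraries, 71.4, 47.9, 55.5, 62.1 and 65.7 CPM in the 5 HET libraries and 79.96, 86, 74, 64.4 and 54.8 CPM in the 5 KO libraries. KO-694, KO-695 and KO-696 lay above the highest WT library, and KO-738 and KO-739 lay inside the WT range. The log2 fold change in KO against WT was 0.30 ± 0.14 (SE), with an edgeR adjusted p of 0.197 and a 95% interval of 1.01- to 1.51-fold. Against HET it was 0.25 ± 0.14 (SE), with an edgeR adjusted p of 0.324 and a 95% interval of 0.97- to 1.45-fold. With the GC slope of each library, described below, as a term in the fit, the KO against WT value was 0.33 and passed the threshold (edgeR adjusted p = 0.00674), in a fit that called 13.7% of all genes. In the animals numbered 700 or above, of which 2 were KO, the KO against WT value was 0.03 (edgeR adjusted p = 0.946) and the KO against HET value was -0.01. With the animal number range (below 700, or 700 and above) as a term the KO against WT value was 0.17 (0.615).

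Near-identical keratins can take reads from these genes. Of the 75-base stretches of Krt14 transcripts, 5.71% also occur in Krt16, and of those of Krt5, 5.09% occur in Krt6a or Krt6b; Krt15 and Krt17 share 0 with another keratin. The longest run that Krt14 shares with Krt16 spans 134 bases of coding sequence in exon 1, at chr11:100207017-100207150 on the minus strand, and shows why a short read from it names neither gene:
Krt14 and Krt16: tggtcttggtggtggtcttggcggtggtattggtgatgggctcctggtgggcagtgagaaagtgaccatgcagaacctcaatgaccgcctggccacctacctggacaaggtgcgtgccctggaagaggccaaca
Krt16 had 5 counts in all 15 libraries together, Krt6a 11 and Krt6b 4, against 1068 to 3207 counts of Krt14 per library. How reads that match several places were counted is not given in the sources used here.

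Krt15 encodes a type I keratin found in basal layers (chromosome 11, 100131759 to 100135949). It stood at 104, 80.04, 108, 86 and 106 CPM in the 5 WT libraries, 113, 86.2, 91.3, 81.7 and 105 CPM in the 5 HET libraries and 89.8, 88, 85, 110.2 and 92.4 CPM in the 5 KO libraries. The KO libraries spanned nearly the WT range, and it was the 1 member with a KO against WT value below 0, at -0.06 ± 0.10 (SE), with an edgeR adjusted p of 0.783 and a 95% interval of 0.822- to 1.12-fold. For HET against WT the interval was 0.843- to 1.15-fold.

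Krt17 encodes a type I keratin known for its induction in stressed and growing epithelium (chromosome 11, 100256215 to 100261029). It was low, with 20 to 93 counts per library, and stood at 0.81, 2.06, 1.25, 0.91 and 0.81 CPM in the 5 WT libraries, 1.53, 1.34, 0.74, 0.98 and 0.86 CPM in the 5 HET libraries and 1.74, 2.6, 2.1, 2.32 and 1.25 CPM in the 5 KO libraries. KO-695, KO-696 and KO-738 lay above the highest WT library, and 4 of 5 KO libraries lay above every HET library. Its KO mean of 2 ± 0.523 CPM (SD, n = 5) stood beside a WT mean of 1.17 ± 0.528 CPM (SD, n = 5). The log2 fold change, the largest in size of the 9, was 0.80 ± 0.28 (SE), with an edgeR adjusted p of 0.094 and a 95% interval of 1.16- to 2.61-fold, and against HET 0.87 ± 0.28 (SE), with an edgeR adjusted p of 0.0975 and a 95% interval of 1.22- to 2.74-fold. WT-719 held the highest WT level, and without it the KO against WT value was 1.08 and passed the threshold (edgeR adjusted p = 0.0401), in a fit that called 2.74% of all genes.

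Itga6 encodes the alpha6 integrin chain, which pairs with the Itgb4 product in hemidesmosomes (chromosome 2, 71786886 to 71858427). It stood at 51.5, 64.2, 52.9, 44.7 and 54.1 CPM in the 5 WT libraries, 58.7, 57.6, 53.8, 59.6 and 53.5 CPM in the 5 HET libraries and 58.9, 60.4, 66.1, 62.6 and 65.7 CPM in the 5 KO libraries. KO-696 and KO-739 lay above the highest WT library, WT-719, and all 5 KO libraries lay above the other 4 WT libraries. The log2 fold change in KO against WT was 0.23 ± 0.07 (SE), with an edgeR adjusted p of 0.0716 and a 95% interval of 1.05- to 1.31-fold, the smallest adjusted p of the 9 genes in that comparison. The side of the threshold turned on the method: the adjusted p was 0.0408 with upper quartile scaling in edgeR, 0.0316 in DESeq2, 0.0385 with the GC slope as a term in edgeR, and 0.0203 in edgeR without WT-719, where the value was 0.31. HET against WT gave 0.08 ± 0.07 (SE), with an edgeR adjusted p of 0.981 and a 95% interval of 0.951- to 1.18-fold.

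Itgb4 encodes the beta4 chain of the same receptor, whose long tail binds the keratin-linked plaque of the hemidesmosome (chromosome 11, 115974725 to 116008412). It stood at 24.6, 19.9, 22.7, 20.9 and 17.8 CPM in the 5 WT libraries, 23.7, 15.2, 19.7, 19.5 and 18.5 CPM in the 5 HET libraries and 24.8, 24, 22.6, 20.9 and 16.3 CPM in the 5 KO libraries. The 3 genotypes covered nearly the same range. The KO against WT value was 0.04 ± 0.12 (SE), with an edgeR adjusted p of 0.899 and a 95% interval of 0.853- to 1.23-fold, and it was -0.19 in the animals numbered 700 or above. Antisense genes overlap the exons of 2 members: Gm44323 covers 5.87% of the exon bases of Krt5, and B230344G16Rik covers 7.66% of the exon bases of Itgb4 and had at most 7 counts in a library; whether reads of both strands were counted together is not given in the sources used here.

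Itgb6 encodes the beta6 integrin chain (chromosome 2, 60598292 to 60722603). It stood at 5.8, 4.16, 4.36, 4.82 and 5.34 CPM in the 5 WT libraries, 5.44, 4.77, 5.57, 6.15 and 4.26 CPM in the 5 HET libraries and 3.83, 3.83, 3.83, 4.57 and 11.4 CPM in the 5 KO libraries. KO-739 was at 11.4 CPM, and 3 of the other 4 KO libraries lay below every WT and HET library. The KO against WT value was 0.17 ± 0.27 (SE), with an edgeR adjusted p of 0.758 and a 95% interval of 0.755- to 1.67-fold, and without KO-739 it turned to -0.29 (edgeR adjusted p = 0.196). Against HET it was 0.07 ± 0.27 with all libraries and -0.39 without KO-739 (adjusted p = 0.112). KO-739 is the library with skeletal muscle RNA: the muscle myosin gene Myh1 stood at 898 CPM there and at 0.2 to 11.5 CPM in the other libraries. The 3 genes whose levels were most like Itgb6 across the 15 libraries, with genotype means subtracted, were Kcna7, Klhl31 and Neu2, at Pearson's r of 0.96, 0.95 and 0.95, and without KO-739 the same values were 0.75, 0.68 and 0.65. Klhl31 stood at 21.7 CPM in KO-739 and at 0.35 to 0.74 CPM elsewhere.

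Ngfr encodes the p75 neurotrophin receptor (chromosome 11, 95568818 to 95587698). It was low, with 47 to 154 counts per library, and stood at 3.26, 2.86, 2.79, 3.07 and 1.92 CPM in the 5 WT libraries, 3.12, 1.74, 2.04, 2.66 and 2.15 CPM in the 5 HET libraries and 3.79, 4.31, 3.32, 3.1 and 2.42 CPM in the 5 KO libraries. KO-694, KO-695 and KO-696 lay above the highest HET and the highest WT library. The KO against WT value was 0.28 ± 0.19 (SE), with an edgeR adjusted p of 0.389 and a 95% interval of 0.926- to 1.6-fold, and in the animals numbered 700 or above it was -0.01. Against HET it was 0.53 ± 0.19 (SE), with an edgeR adjusted p of 0.126 and a 95% interval of 1.09- to 1.9-fold, and HET against WT gave -0.24 ± 0.19 (SE), with an edgeR adjusted p of 0.981 and a 95% interval of 0.638- to 1.12-fold. Schwann cells also express Ngfr, and their genes summed to 204 to 213 CPM over the WT libraries, 204 to 223 CPM over the HET libraries and 203 to 226 CPM over the KO libraries, and 1 of the 8 tested, the myelin gene Pmp22, was higher in KO than in WT (0.37, edgeR adjusted p = 0.0475). The glial factor Sox10 stood at a mean of 0.489 CPM and the most abundant list genes, Erbb3 and Pmp22, at 121 and 55.3 CPM. Their part in the Ngfr values was not tested.

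Some members varied together between animals of the same genotype, and these members also followed a property of the whole library, given below. How often other pairs of genes do so was not computed. After each genotype's mean of log2 CPM was subtracted, 5 of 36 pairs of members correlated across the 15 libraries (permutation within genotypes, two-sided, adjusted over 36 pairs): Krt14 with Itgb4 (Pearson's r = 0.92, Spearman's rho = 0.88), Krt14 with Ngfr (0.91 and 0.87), Itgb4 with Ngfr (0.89 and 0.80), Krt5 with Krt14 (0.85 and 0.84) and Krt5 with Itgb4 (0.78 and 0.78). The raw permutation p for r was 1e-05 for the first pair, the smallest that 100000 permutations can give, and at most 0.00242 for the others, with adjusted p-values from 0.00036 to 0.0174. For rho the raw p ran from 0.00016 to 0.00233 and the adjusted p from 0.00252 to 0.0168. Without the 2 libraries farthest from the median of the first gene, r was 0.88, 0.83, 0.82, 0.85 and 0.74. In the 10 animals numbered 700 or above, r was 0.85, 0.82, 0.78, 0.77 and 0.64, and 0 of 36 pairs passed the adjusted threshold. Few rearrangements within genotypes exist for 10 libraries, which limits how small p can be, but an adjusted p under 0.05 could still be reached. Whether the pairs were lost or the 10 libraries were too few to show them was not tested. The 5 animals below 700 were too few for a value.

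Trp63 and Itga6 were not part of this set. Trp63 had r = 0.16 with Krt5 (rho = 0.13, raw permutation p = 0.586 and 0.668) and 0.02 with Krt14 (rho = -0.06, raw permutation p = 0.934 and 0.831). Itga6 had r = -0.23 with Itgb4, its hemidesmosome partner (rho = -0.28, raw permutation p = 0.4 and 0.344). The pair Trp63 and Itga6 reached r = 0.56 (rho = 0.26, raw permutation p = 0.0887 and 0.395), and -0.07 without WT-719 and WT-723, so that value rested on those libraries.

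**Figure D3:**
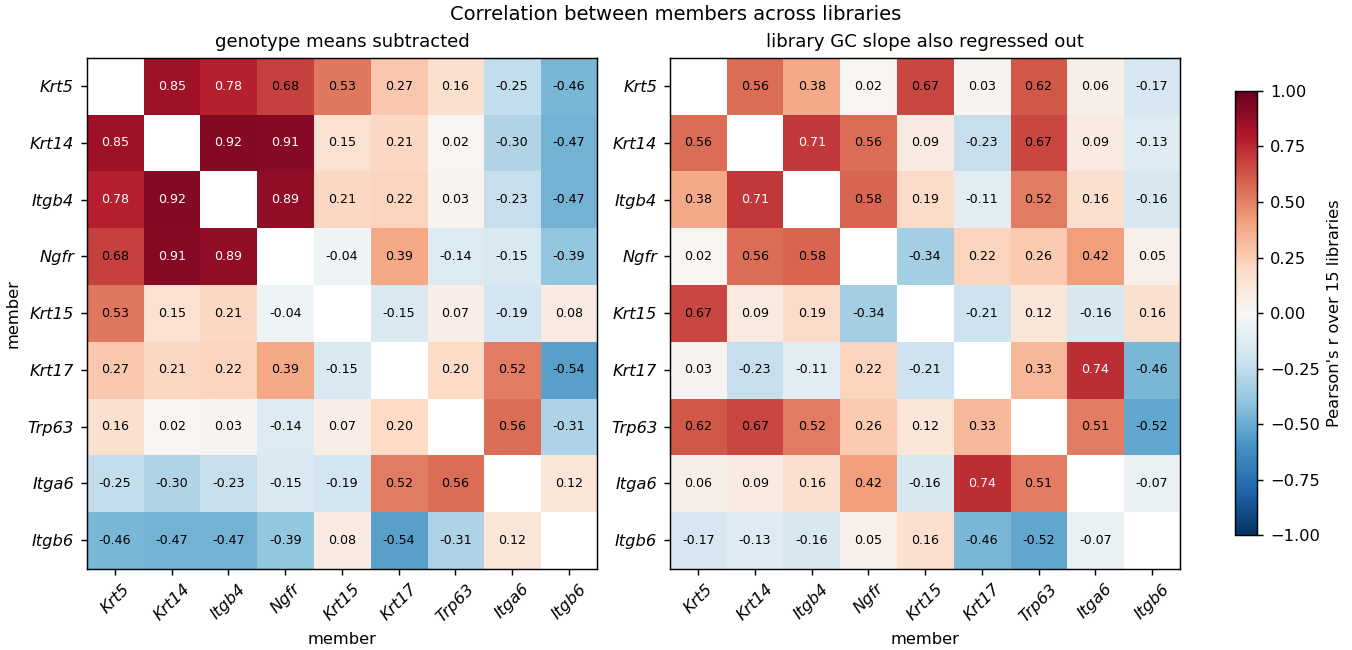
Pearson's r between each pair of basal cell genes over 15 libraries (colour and printed value), with genotype means subtracted (left) and with the GC slope of the library also regressed out (right). Krt5, Krt14, Itgb4 and Ngfr form the block of high values at the upper left, which runs from 0.68 to 0.92 on the left and from 0.02 to 0.71 on the right.

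The same genes followed a property of the whole library. For each library the deviation of 14095 genes from their mean log2 CPM was regressed on the GC content of their transcripts, and the slope, per 10 points of GC, lay between -0.16 and 0.13 among WT libraries, between -0.11 and 0.10 among HET libraries and between -0.19 and 0.18 among KO libraries, with means of 0.03, -0.04 and 0.01. A positive slope means that GC-rich transcripts took more of the counts. The members were among the genes that set the slope, and GC-rich genes tend to follow it by construction. What share of all genes correlates with it was not computed. With genotype means subtracted, this slope correlated with Krt14 (r = 0.90, rho = 0.87), Ngfr (0.89 and 0.87), Itgb4 (0.84 and 0.84) and Krt5 (0.76 and 0.76), 4 of 9 members, at raw permutation p-values for r from 3e-05 to 0.00215 and adjusted p-values from 0.00018 to 0.00484 over 9 tests; the raw p for rho was at most 0.00383. Without WT-726 and KO-739, the libraries whose slopes lay farthest from the median once genotype means were subtracted, r was 0.80, 0.77, 0.70 and 0.67, and in the 10 animals numbered 700 or above it was 0.92, 0.85, 0.88 and 0.66. These 4 transcripts have 57.2%, 58.6%, 60.0% and 56.9% GC, against a median of 49.7% over the tested genes. Trp63, with 44.2% GC, had r = -0.29 (rho = -0.41, raw permutation p = 0.357 and 0.165), and Itga6, with 48.9%, had r = -0.37 (rho = -0.30, raw permutation p = 0.274 and 0.331). Krt15 and Krt17 are GC-rich as well, at 55.3% and 58.9%, and had r = 0.13 (rho = 0.15, raw permutation p = 0.656 and 0.608) and 0.34 (rho = 0.36, raw permutation p = 0.277 and 0.228).

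With the slope regressed out, 0 of 36 pairs passed the adjusted permutation threshold. Krt14 with Itgb4 was at r = 0.71 (raw permutation p = 0.0155, adjusted p = 0.172), Krt5 with Krt14 at 0.56 (raw permutation p = 0.0708), and Krt5 with Ngfr at 0.02. Trp63 then stood at 0.67 with Krt14 (raw permutation p = 0.0109, adjusted p = 0.172) and at 0.62 with Krt5 (raw permutation p = 0.0239, adjusted p = 0.172).

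**Figure D4:**
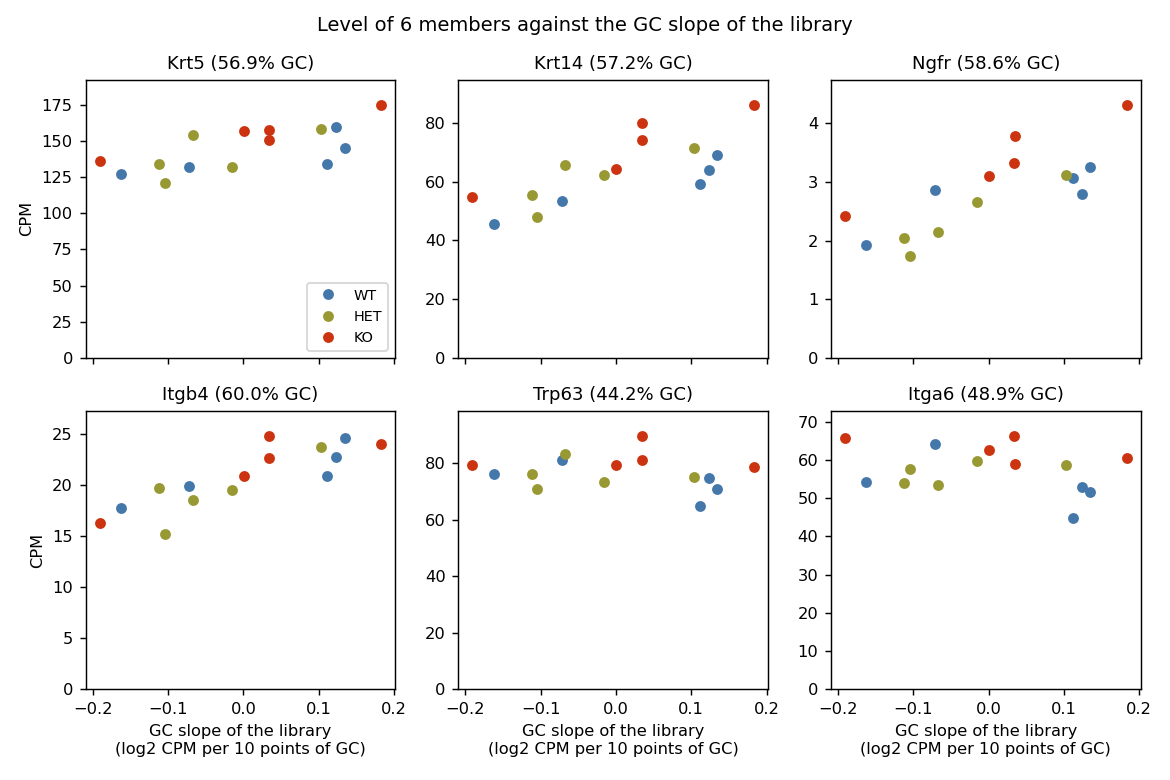
CPM (y axis, from 0) of 6 basal cell genes against the GC slope of the library (x axis, log2 CPM per 10 points of transcript GC), with 1 point per library coloured by genotype. Krt14, Ngfr, Itgb4 and Krt5 rise from left to right with r of 0.76 to 0.90, and Trp63 and Itga6 do not, with r of -0.29 and -0.37.

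Among all genes of at least 1 mean CPM, those most like each member are given as a description over the same 15 libraries with genotype means subtracted. The genes most like Krt5 were the growth factor receptor gene Fgfr3 (r = 0.93), Rtl8a (0.89) and Rhbg (0.89). For Krt14 they were Bcam, a laminin-binding cell adhesion gene (0.95), Col7a1, the anchoring fibril collagen gene (0.95), and Ltbp4, a latent TGF-beta binding protein gene (0.94). For Itgb4 they were Krt14 itself (0.92), Tradd (0.92) and again Col7a1 (0.91), and for Ngfr Pofut2 (0.95), Dab2ip (0.93) and Polr2e (0.93). The transcripts of Bcam, Col7a1 and Ltbp4 have 60.9%, 61.6% and 62.2% GC. Trp63 was most like Cpox (0.86), Gm34343 (0.85) and Ccdc174 (0.83), and Itga6 most like Ptpn12 (0.86), Spred1 (0.85) and Pip4k2b (0.84). For Krt17 the genes were Syna, Btbd9 and Dnajc22 (0.89 each), and for Krt15 Rps13-ps5 (0.88), Zfp783 (0.82) and Gm6166 (0.80).

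Some partners of these genes in the basement membrane changed. Of 16 hemidesmosome and basement membrane genes, all tested, 4 rose and 0 fell in KO against WT by edgeR, and 12 did not pass, while 4.4% of all genes were called higher and 1.6% lower; the list's median was 0.17. The 4 were basement membrane genes: the type IV collagen chains Col4a6 (0.59 ± 0.1, SE; edgeR adjusted p = 0.00462) and Col4a5 (0.54 ± 0.1; 0.0105), the laminin chain Lamb1 (0.51 ± 0.09; 0.00641) and nidogen, Nid1 (0.43 ± 0.09; 0.0122). Col4a6 stood at 22.9, 23.4, 22.9, 25.4 and 27.7 CPM in WT, 28.9, 25, 23.6, 25.8 and 25.5 CPM in HET and 36.7, 36.6, 44.8, 28.2 and 37.3 CPM in KO. KO-738 had the lowest KO level of each of the 4, 28.2, 47.0, 42.5 and 76.3 CPM, each above the highest WT library, at 27.7, 46.0, 40.8 and 71.6 CPM. In KO against HET the same 4 of 16 were called (1.61% of all genes were called higher). The KO and HET ranges overlapped in each of the 4. HET-692, at 28.88, 47.26, 43.49 and 80.05 CPM, lay above KO-738. In that comparison 0 of 16 were called in fits without HET-693, HET-715, HET-718, HET-735 or KO-696, or with the 2 genotypes alone, and 7 were without KO-738. With the animal number range (below 700, or 700 and above) as a term, 2 of 16 were called in KO against WT, Lamb1 and Col4a6. Restricted to animals numbered 700 or above, 0 of 16 were called in either comparison, as were 0 of all 19801 genes tested in KO against WT.

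In KO against WT, the basement membrane genes Lama5 (0.03, edgeR adjusted p = 0.938), Lamc1 (0.23, 0.0885) and Col7a1 (0.23, 0.457) did not pass. Components of the hemidesmosome itself gave values near 0 or did not pass. Its transmembrane collagen Col17a1 had a KO against WT value of 0.11 (edgeR adjusted p = 0.492), the plaque proteins Plec and Dst 0.06 (0.849) and 0.21 (0.0533), and the anchoring laminin chain genes Lama3 and Lamb3 0.12 (0.31) and 0.24 (0.205). Dst passed in DESeq2 and, in edgeR, with upper quartile scaling, with the GC slope as a term, without KO-695 and without KO-738; Lamb3 passed with the GC slope as a term. The most abundant genes of the list, Itgb1 and Cd151, stood at means of 551 and 209.5 CPM with values of 0.03 and -0.01. The endothelial genes given above summed higher in every KO library than in any WT library. In KO-738, fibroblast genes summed to 1286 CPM, within the WT range of 1074 to 1414 CPM. Macrophage genes summed to 75.6 CPM there, beside a WT maximum of 74.2 CPM. The part of endothelial, fibroblast and macrophage genes in the basement membrane values was not tested. In HET against WT 0 of the 16 were called, and 0 had an unadjusted p under 0.05.

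**Figure D5:**
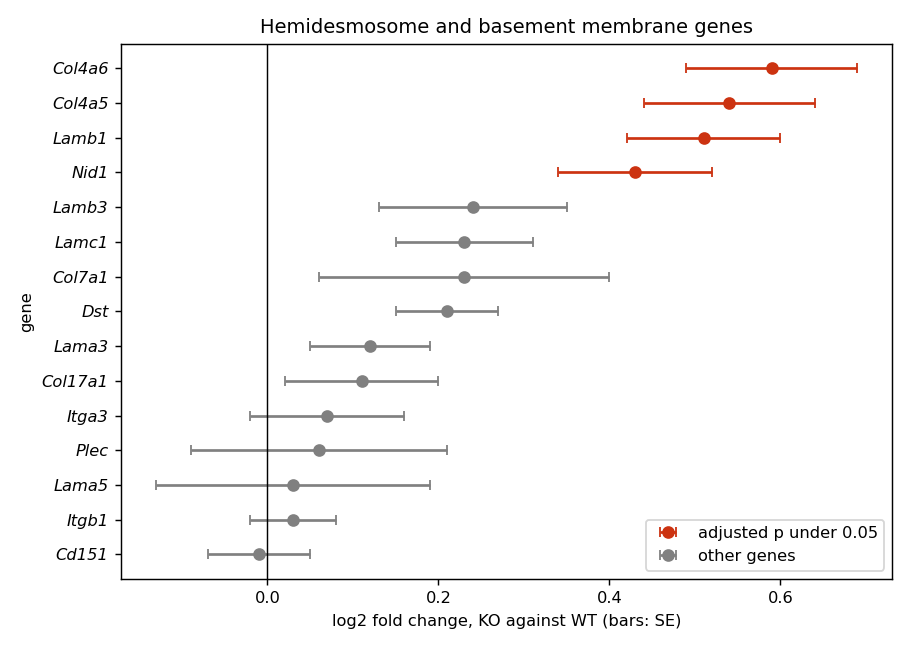
Log2 fold change in KO against WT of 15 of the 16 hemidesmosome and basement membrane genes (points) with the SE of the edgeR fit (bars), in red where the adjusted p was under 0.05. Col4a6, Col4a5, Lamb1 and Nid1 stand at 0.43 to 0.59, and Plec, Col17a1, Lama3, Dst and Lamb3 at 0.06 to 0.24. The basement membrane genes Lama5, Lamc1 and Col7a1 stand at 0.03, 0.23 and 0.23, in grey.

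Of 11 genes around the alpha-v beta6 integrin, 3 rose and 1 fell in KO against WT, where 4.4% of all genes were called higher and 1.6% lower. Those that rose were the TGF-beta receptor gene Tgfbr2 (0.67 ± 0.1, SE; edgeR adjusted p = 0.00378), fibronectin, Fn1 (0.44 ± 0.12; 0.0374), and Itgb5, another partner of alpha-v (0.32 ± 0.09; 0.0485). The matrix glycoprotein gene Tnc fell (-0.60 ± 0.16, edgeR adjusted p = 0.0351). KO-738, at 9.24 CPM of Tnc, lay inside the WT range of 8.58 to 10.35 CPM, and the HET libraries, at 6.36 to 8.15 CPM, lay below it. The HET against WT value of Tnc was -0.45 ± 0.16 (SE, edgeR adjusted p = 0.981). In HET against WT 0 of the 11 were called, and 2 had an unadjusted edgeR p under 0.05, against 4.4% of all genes. Tgfbr2 stood at 21.5, 23, 23, 20.4 and 21.9 CPM in WT and 32.7, 33.4, 37, 26.2 and 45.2 CPM in KO, with no overlap. It remained called in each fit without 1 library and with the animal number range as a term. In animals numbered 700 or above 0 of the 11 were called. Only Tgfbr2 was called with the animal number range as a term, with the 2 genotypes alone and in fits without WT-709, WT-719, WT-723, WT-726, KO-694, KO-695 or KO-696. Tgfbr2 and Tnc alone were called without HET-718 or without the filter on low counts. With the GC slope as a term 7 of 11 were called. Itgav, which encodes the alpha-v chain, had a value of -0.09 (adjusted p = 0.434), and Tgfb1, a latent ligand of the receptor, -0.29 (0.23). Tgfbr1 and Itgav, the most abundant of the list, stood at means of 149.5 and 100.02 CPM. In KO against HET Tgfbr2 (0.52; 0.0257) and Fn1 (0.63; 0.0226) were called, where 1.61% of all genes were called higher. In that comparison 0 of the 11 were called in fits without HET-693, HET-715, HET-718, HET-735 or KO-696, or with the 2 genotypes alone, and 4 were without KO-738.

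Of 10 neurotrophin and neurotrophin receptor genes, 8 were tested and 1 rose in KO against WT, where 4.4% of all genes were called higher. It was Ntrk2, the receptor of BDNF, which rose by 0.69 ± 0.13 (SE; edgeR adjusted p = 0.0108), from 13.1, 13.8, 11.9, 13 and 13 CPM in WT to 20.6, 23, 24.6, 13.3 and 23.2 CPM in KO. KO-738 lay inside the WT range, and with the animal number range as a term 0 of the 8 passed. The ligand genes Bdnf and Ntf3, at means of 0.0684 and 0.253 CPM, were too low to be tested. The p75 co-receptor gene Sort1 and Maged1, a p75 binding partner, were the most abundant, at means of 1529.8 and 859 CPM, with values of -0.02 and -0.06. In HET against WT and in KO against HET 0 of the 8 passed in edgeR. At an unadjusted p under 0.05 there were 0 and 3 of 8, against 4.4% and 20.8% of all genes. DESeq2 called 0 and 2 of 8, against 0.00516% and 6.41% of all genes. In KO against WT DESeq2 called 2 of 8, Ntrk2 and Ntrk3, against 9.95% of all genes. The same pair passed in edgeR with upper quartile scaling, with the GC slope as a term, without WT-720 and without KO-738.

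Other genes typical of basal layers gave no call in edgeR. Of 23, 15 were tested and 0 passed in KO against WT, where 6% of all genes were called. 5 of the 15 had an unadjusted p under 0.05, against 23.6% of all genes, and 10 of the 15 values were above 0, against 46.8% of all genes, with a median of 0.04. DESeq2 called 1 of the 15, lower in KO, against 9.95% of all genes. The 2 most abundant were the desmosome gene Dsp, at 260.3 ± 15.7 CPM in WT and 284 ± 23.7 CPM in KO (SD, n = 5), and Ptgs1, a cyclooxygenase gene, at 195 ± 11.9 and 165 ± 23.5 CPM. The 8 untested genes, among them Aqp3, Dsc3, Dsg3 and Krt6a, each had a mean of at most 0.245 CPM. Of 9 luminal epithelial genes 0 passed in KO against WT by edgeR (1 at an unadjusted p under 0.05, 0 by DESeq2), and the most abundant, Krt18 and Epcam, had values of -0.04 and 0.00. Only 1 of the 9 luminal values was above 0, against 46.8% of all genes, with a median of -0.06. Urothelial genes, from a neighbouring basal-cell-bearing epithelium, summed to 60.8 to 67.6 CPM in WT and 61.1 to 83.3 CPM in KO. Of 5 tested, 2 were called higher in KO by edgeR, Upk1b and Krt20, where 4.4% of all genes were. Krt20 was low, at a mean of 0.671 CPM. Only those 2 of the 5 values were above 0, and the list's median was -0.02. Krt13 stood at a mean of 0.0149 CPM.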

How the data were processed

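Whole epididymides of 15 mice aged 7 weeks were sequenced as stranded mRNA libraries, per the labels' protocols. The authors deposited raw counts for each gene. The submitters' processing notes name HISAT2 2.0.5, FastQC, GRCm38.p6, and featureCounts from Subread 1.4.6p5; the strand setting is not given in the sources used here. Of 41591 gene IDs, 40290 were named through RefSeq (GRCm38.p6), whose gene coordinates and promoters are given.

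The deposited counts went into edgeR 4.0.16 under R 4.3.3 (TMM, filterByExpr, robust quasi-likelihood test), with all 15 libraries in 1 fit, a mean for each genotype and 12 residual degrees of freedom. Benjamini-Hochberg adjustment covered 19388 genes, and 0.05 was the threshold. The biological coefficient of variation was 16.3%, and counting noise adds to it for genes under about 100 counts in a library (Krt17, Ngfr). Replicates were separate animals. Exon lengths and transcript GC content came from GENCODE M21, and GC content was known for 80.3% of the tested genes. Correlations used log2 CPM (prior count 2) with genotype means subtracted and 100000 permutations within genotypes.

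The members and lists were chosen with earlier results of these data known. Named genes were the members, Plag1, in each pathway list those past the threshold (up to 4 each way) and the 2 most abundant, the 2 most abundant of cell type lists, and the 3 genes most like each member. Other genes, such as the skin keratins, Col17a1, Plec, Dst and Itgav, were named for their roles after their values were seen. 2 list genes are counted but not reported here by name. Alternatives were other scaling factors, no filter on low counts, a fit of the 2 genotypes compared, animal number range (below 700 or not), used as a term or to restrict the libraries, DESeq2 1.42.0 and leaving out each library; a GC slope term, leaving out libraries from the correlations, and the refits of the lists were added after seeing the data. Both tests were checked on simulated data.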

Additional observations from a re-analysis of the deposited data

Results flagged for a closer look

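Of 27 sets of 5 libraries (9 genes in 3 genotypes), 2 held a library far from the other 4 of its genotype, where chance alone flags about 1 in 20. Itgb6 stood at 11.43 CPM in KO-739 and at 3.83 to 4.57 CPM in the other KO libraries. KO-739 also held skeletal muscle genes, with Myh1 at 898 CPM; their part in the Itgb6 value was not tested. Trp63 stood at 89.5 CPM in KO-696 and at 78.8 to 81.2 CPM in the other KO libraries.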

How the results depend on the processing

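The number of the 9 members called was 0 in KO against WT under other fits except with upper quartile scaling (1, Itga6), DESeq2 (1, Itga6), the GC slope as a term (2, Krt14 and Itga6) and without WT-719 (2, Krt17 and Itga6), and leaving out each library in turn gave 0 to 2. In KO against HET it was 0 except with DESeq2 (1, Krt17), and in HET against WT 0 in every fit. The count of correlated pairs was 4 to 7 with 1 library left out and 0 with the GC slope regressed out. It was also 0 in animals numbered 700 or above. Few rearrangements within genotypes limit how small p can be there, but the threshold could still be reached. The causes were not tested.

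Some values changed sign, and some of these were not near 0. Among them were Ngfr and Itgb6 in KO against WT, at 0.28 and 0.17. Krt14 and Itgb4 in KO against HET, at 0.25 and 0.17, were others. In KO against WT, Itgb4 was -0.086 with the animal number range as a term, and in animals numbered 700 or above Itgb4 was -0.19, Krt15 0.064 and Ngfr -0.012. In KO against HET, Krt14 was -0.013, Krt15 0.15 and Itgb4 -0.03 in those animals. In HET against WT, Krt5 was -0.006 with RLE scaling, -0.004 without the filter, -0.018 with the 2 genotypes alone, -0.024 with the animal number range as a term, -0.019 in animals numbered 700 or above and -0.006 in DESeq2; Krt14 was -0.022 and Krt15 0.0 with the animal number range as a term; Krt17 was 0.001 and Itgb6 -0.038 with the GC slope as a term.

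Leaving out each library gave, in KO against WT, -0.023 to 0.122 for Itgb4 and -0.287 to 0.277 for Itgb6; in KO against HET, -0.095 to 0.046 for Krt15 and -0.385 to 0.201 for Itgb6; and in HET against WT, -0.056 to 0.045 for Krt5, -0.036 to 0.121 for Krt14, -0.1 to 0.022 for Krt15, -0.242 to 0.202 for Krt17 and -0.018 to 0.071 for Trp63.

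No paired analysis was possible because the genotypes share no animal numbers. All WT animals were numbered above 700, so that range and genotype are partly confounded; the labels do not say what the numbers mean. Other scalings moved the median of all genes by at most 0.0278. Krt17, at 20 to 93 counts a library, is the member that depth limits most.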
